A study of Mus musculus with 677 samples.

Results

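The core autophagy genes were followed through the mouse intestinal epithelium: 43 genes chosen by name, of the 23420 genes in the expression table, that encode the machinery from initiation of the autophagosome to its fusion. They cover initiation (4 genes), the lipid kinase complexes (7), the effectors of its lipid product and the lipid transfer proteins (9), the conjugation system (11), the ATG8 proteins (5), the cargo receptors (5) and fusion and tethering (2). The data were 677 single cells, each a SMART-Seq2 library made from full-length cDNA, from knockout C57BL/6 mice that lack Atg16l2 (KO) and from wild-type C57BL/6 mice (WT). Each genotype had 2 animal codes (M1 and M2) and 2 runs, with 80 to 87 cells per animal and run, and the labels do not say whether a code marks the same mouse in both runs, how the null allele was made, or the age of the mice. The authors assigned each cell to 1 of 9 types: goblet (70 cells), Paneth (22), enteroendocrine (32) and tuft (7) cells of the secretory lineage, and stem (96), transit-amplifying (TA, 90 KO and 85 WT), early (78 KO and 64 WT) and late (75) enterocyte progenitor and mature enterocyte (58) cells of the absorptive lineage.

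Autophagy encloses cytoplasm in a double membrane and delivers it to the lysosome. The ULK kinase complex starts the process, a phosphatidylinositol 3-kinase complex built on BECN1 and PIK3C3 marks the membrane, WIPI proteins read that mark while ATG2, ATG9 and VMP1 move lipid, and 2 ubiquitin-like systems attach ATG8 proteins (LC3 and GABARAP) to the membrane, where receptors such as SQSTM1 tether their cargo. ATG16L1 forms the complex with ATG5 and ATG12 that directs LC3 to the membrane, and ATG16L2 is its paralogue. In the intestine, ATG16L1 and ATG5 are known for their part in granule secretion by Paneth cells. The series title asks about distinct roles of Atg16l2 and Atg16l1.

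The regions around the transcription starts of 35 of the 43 genes were found in the RefSeq promoter table (build GRCm38.p6, 250 bases before the start to 50 after it). Of these, 4 are shown because the results turn on them: Tecpr1, Sqstm1 and Gabarapl2, which were high in enteroendocrine cells, and Atg16l2, the deleted gene. Capitals mark a match to CAGNTG on either strand, an E-box form read by basic helix-loop-helix factors. The form CACGTG, read by the MiT/TFE family of autophagy and lysosome regulators, was also searched on both strands. CACGTG was present in 5 of the 35 regions (14.3%), those of Atg14, Atg3, Atg5, Atg7 and Nrbf2, against 8.09% of all 27025 genes of the table. CAGNTG was present in 17 of the 35 (48.6%), against 54.6% of all genes. None of the 4 regions shown held CACGTG, and Gabarapl2 held neither. A match is a description of letters and not a binding site.
Tecpr1, chr5:144223566-144223865, minus strand: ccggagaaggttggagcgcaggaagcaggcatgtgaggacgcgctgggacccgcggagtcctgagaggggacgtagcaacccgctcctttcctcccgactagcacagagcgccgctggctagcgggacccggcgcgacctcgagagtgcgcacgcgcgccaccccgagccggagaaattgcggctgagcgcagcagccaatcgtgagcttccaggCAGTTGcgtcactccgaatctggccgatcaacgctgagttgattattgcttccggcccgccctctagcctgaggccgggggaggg
Sqstm1, chr11:50210771-50211070, minus strand: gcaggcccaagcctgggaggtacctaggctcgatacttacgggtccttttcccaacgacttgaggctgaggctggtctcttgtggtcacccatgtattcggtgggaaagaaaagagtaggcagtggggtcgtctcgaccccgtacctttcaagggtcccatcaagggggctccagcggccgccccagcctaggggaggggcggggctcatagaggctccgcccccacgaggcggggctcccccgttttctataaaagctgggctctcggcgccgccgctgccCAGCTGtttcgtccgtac
Gabarapl2, chr8:111940453-111940752, plus strand: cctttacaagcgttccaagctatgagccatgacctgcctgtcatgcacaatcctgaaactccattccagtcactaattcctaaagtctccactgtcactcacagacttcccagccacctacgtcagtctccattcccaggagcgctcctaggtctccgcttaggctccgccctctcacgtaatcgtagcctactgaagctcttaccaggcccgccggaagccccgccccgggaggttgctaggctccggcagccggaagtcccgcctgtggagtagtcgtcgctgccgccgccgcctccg
Atg16l2, chr7:101302039-101302338, minus strand: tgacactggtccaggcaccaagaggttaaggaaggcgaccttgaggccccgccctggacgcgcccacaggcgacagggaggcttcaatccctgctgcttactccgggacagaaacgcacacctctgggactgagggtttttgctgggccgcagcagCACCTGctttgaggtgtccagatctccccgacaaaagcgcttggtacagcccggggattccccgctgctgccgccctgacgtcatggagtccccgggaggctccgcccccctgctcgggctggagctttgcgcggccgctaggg

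Facts about the libraries bear on all values. Values are TPM, transcript amounts corrected for gene length and scaled to the same total in every cell, so sequencing depth is unknown and an amount is relative to the rest of the cell's RNA. The median number of genes above 0 TPM per cell was 5134 in Paneth cells and between 5590.5 and 6713 in the other types. In Paneth cells the 50 most abundant genes held a median of 97% of the TPM, against 35.1% to 42.8% in the other types. The summed TPM of the defining markers was highest in their own type in all 4 animals for stem, enterocyte, goblet, Paneth, enteroendocrine and tuft cells. Not every single marker followed its sum. Over all cells, Lgr5 had 125.1 TPM in stem and 146.9 TPM in tuft cells, and Mmp7 883 TPM in Paneth and 1322 TPM in goblet cells. The proliferation markers of TA cells summed to 964 to 1080 TPM in TA cells and to 715 to 1058 TPM in early progenitors, so they did not set those types apart. Goblet cells of KO M1 held 85949 TPM of 7 Paneth markers, against 2149 TPM in KO M2, 20609 TPM in WT M1 and 3701 TPM in WT M2. On the first principal component of the run and animal profiles (27.5% of the variance), KO M2 of run 1 lay at -20.8, with the run 2 profiles (-14.2 to -4.34), while KO M1, WT M1 and WT M2 of run 1 lay at 18.5, 17 and 23, so counts of called members and the differences of the genes given with full values were also computed without these cells, and part of them are given beside the results. Of the 43 genes, 16 share exon bases with another gene in the GENCODE annotation, most on the opposite strand (Becn1 with Cntd1, 3104 bases; Sqstm1 with Mrnip, 580; Atg9a with Gm29253, 1832), and whether reads were counted by strand is not given in the sources used here.

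Atg16l2, the deleted gene, was detected in no KO cell, and in WT mainly in stem, TA and enteroendocrine cells. Every KO cell was at 0 TPM, and the share of KO cells in which the gene would be detected is limited to 0.877% by 3 counts of the total, or to 1.07% by the exact binomial 95% interval. In WT it was above 0 TPM in 38 cells (11.3%), 20 in WT M1 (11.9% of its cells) and 18 in WT M2 (10.8%). These limits and intervals cover counting error over cells only, and bound cells with detected transcript, not cells that express the gene. In positive WT cells its level ran from 0.48 to 190.37 TPM with a median of 57.4 TPM. Within runs, the WT share was 13.4% and 10.5% in WT M1 (run 1, run 2) and 13.8% and 7.50% in WT M2.

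Among WT types, the mean over cells was highest in stem cells (17.2 and 26.3 TPM in WT M1 and WT M2), with 11 of 49 cells positive (22.4%, exact binomial 95% interval 11.8% to 36.6%). TA cells had 10.6 and 11.1 TPM (16 of 85 cells, 18.8%, interval 11.2% to 28.8%). Enteroendocrine cells had 26.7 TPM in WT M1 and 0 in WT M2, which has 3 such cells, so their place in the order rests on 1 animal. Along the absorptive lineage the level then lay at 2.52 and 0 TPM in early progenitors and 1.10 and 0 TPM in late progenitors, and it was 0 in both animals in mature enterocytes (0 of 29 cells, a limit on detection of 10.3% by 3 counts, or 11.9% by the exact binomial interval). Goblet cells (0 and 2.06 TPM) and Paneth cells (0.0800 and 0.803 TPM) were low, and the 3 WT tuft cells were at 0. The stem and TA animals did not overlap with each other, nor with any of the progenitor, goblet, Paneth or enterocyte animals, whereas early progenitor, goblet, late progenitor and Paneth cells overlapped. Median genes detected per WT cell were 5661 in stem cells and 6488 in TA cells. Within stem cells they were 5877 in Atg16l2-positive and 5655 in Atg16l2-negative cells, and within TA cells 6663 and 6459. The part of detection in the order of types was not tested.

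Atg16l1, the paralogue, was detected in every WT type but tuft. It was above 0 TPM in 51.8% of KO cells and 47.8% of WT cells. In WT its mean lay between 15.7 and 24.1 TPM in stem, TA, early and late progenitor and goblet animals. Enterocytes (28.8 and 10.2 TPM), enteroendocrine cells (52.1 and 5.49 TPM) and Paneth cells (16.1 and 1.15 TPM, WT M1 then WT M2) differed more between animals than the types differed from each other. The F test over 8 cell types, fitted with limma to the 4 animals, did not call Atg16l1 (Benjamini-Hochberg adjusted p = 0.0559, and 0.949 without Paneth cells), though it was among the members called lower in Paneth than in absorptive cells (log2 difference -1.57, limma adjusted p = 0.000968, and 0.107 after rescaling each profile by the median ratio to the others). Atg16l2 was tested between types only in the fit without a filter, which did not call it in enterocytes against stem cells (-2.24, limma adjusted p = 0.115). That fit also held the KO animals, which were at 0 in every type, so it cannot decide how Atg16l2 differs between WT types. Of the summed TPM of the pair in WT, Atg16l2 made up 45.7% and 54.1% in stem cells (WT M1, WT M2), on average 37.8% in TA cells and 6.01% in early progenitors, and 0 in enterocytes. In mean TPM the pair was thus at about equal level in WT stem cells and at Atg16l1 alone in WT enterocytes. By detection it was not equal in stem cells. Of 49 WT stem cells, 6 held both, 15 Atg16l1 alone, 5 Atg16l2 alone and 23 neither. Within WT cells, Atg16l1 was detected in 19 of 38 Atg16l2-positive cells (50%, interval 33.4% to 66.6%) and in 47.5% of Atg16l2-negative cells (interval 41.7% to 53.3%), with medians of 5896 and 6058 genes per cell. The intervals overlapped, but they pool cells over 2 animals and over types, so they do not test a difference in detection of Atg16l1. Within stem cells the shares were 54.5% in Atg16l2-positive and 39.5% in Atg16l2-negative cells, and within TA cells 50% and 44.9%. The other types held few Atg16l2-positive cells.

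**Figure D1:**
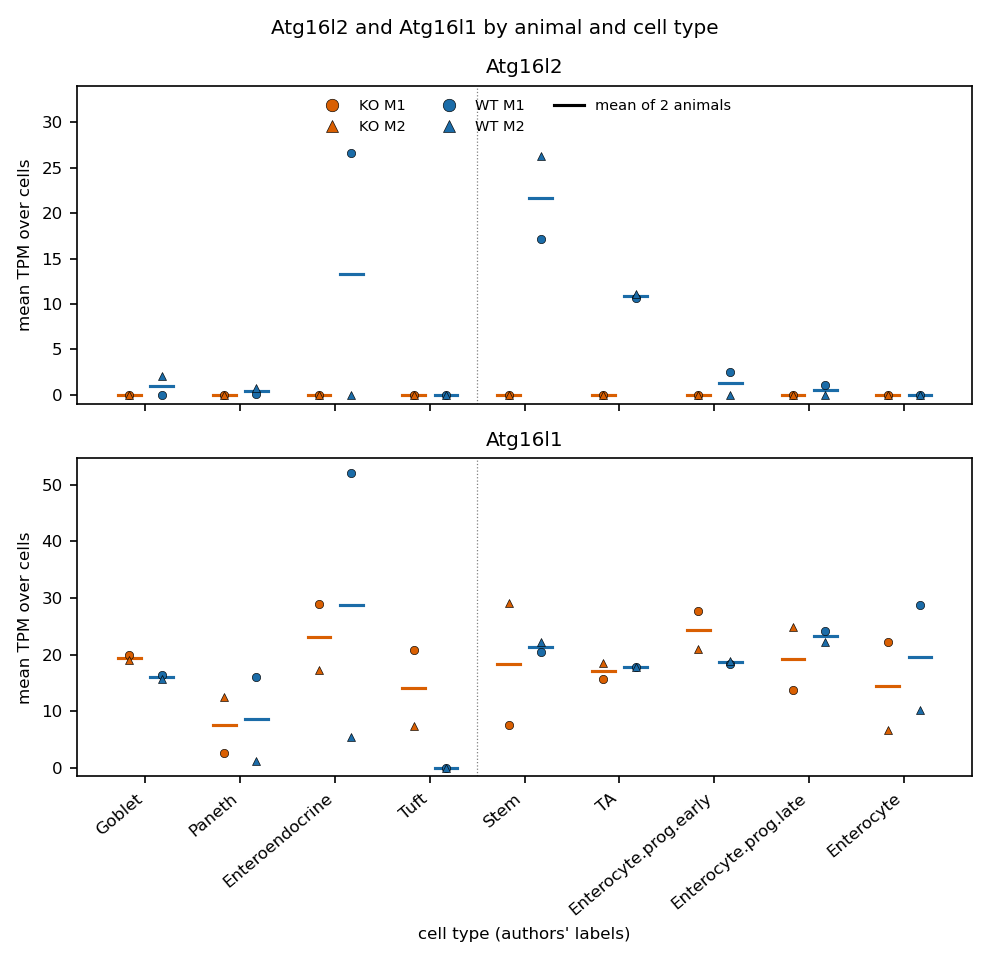
Mean TPM of Atg16l2 (top) and Atg16l1 (bottom) over the cells of each animal and cell type, KO in orange left of WT in blue, with circles for M1, triangles for M2 and bars for the mean of 2 animals; the dotted line parts secretory from absorptive types. Atg16l2 is at 0 in every KO profile and stands at 17.2 and 26.3 TPM in WT stem cells, while Atg16l1 is present in both genotypes in all types but WT tuft cells.

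Across the machinery, the ATG8 proteins had the highest summed level of any step in every WT cell type. In stem cells of WT the members of a step summed to 38.6 TPM for initiation, 181.045 TPM for the lipid kinase complexes, 222.9 TPM for effectors and lipid transfer, 295.9 TPM for conjugation, 489 TPM for ATG8 proteins and 319.2 TPM for receptors (mean of 2 animals). Enteroendocrine cells had the highest WT mean of 25 of the 43 members among the 8 types other than tuft, enterocytes of 6, and Paneth cells of none. Paneth cells had the lowest WT mean of 38 of the 43. These counts were not made over all genes, so they are not read as particular to the members. Of all genes, 96.2% were called lower in Paneth than in absorptive cells, and the enteroendocrine means rest on 12 WT cells.

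**Figure D2:**
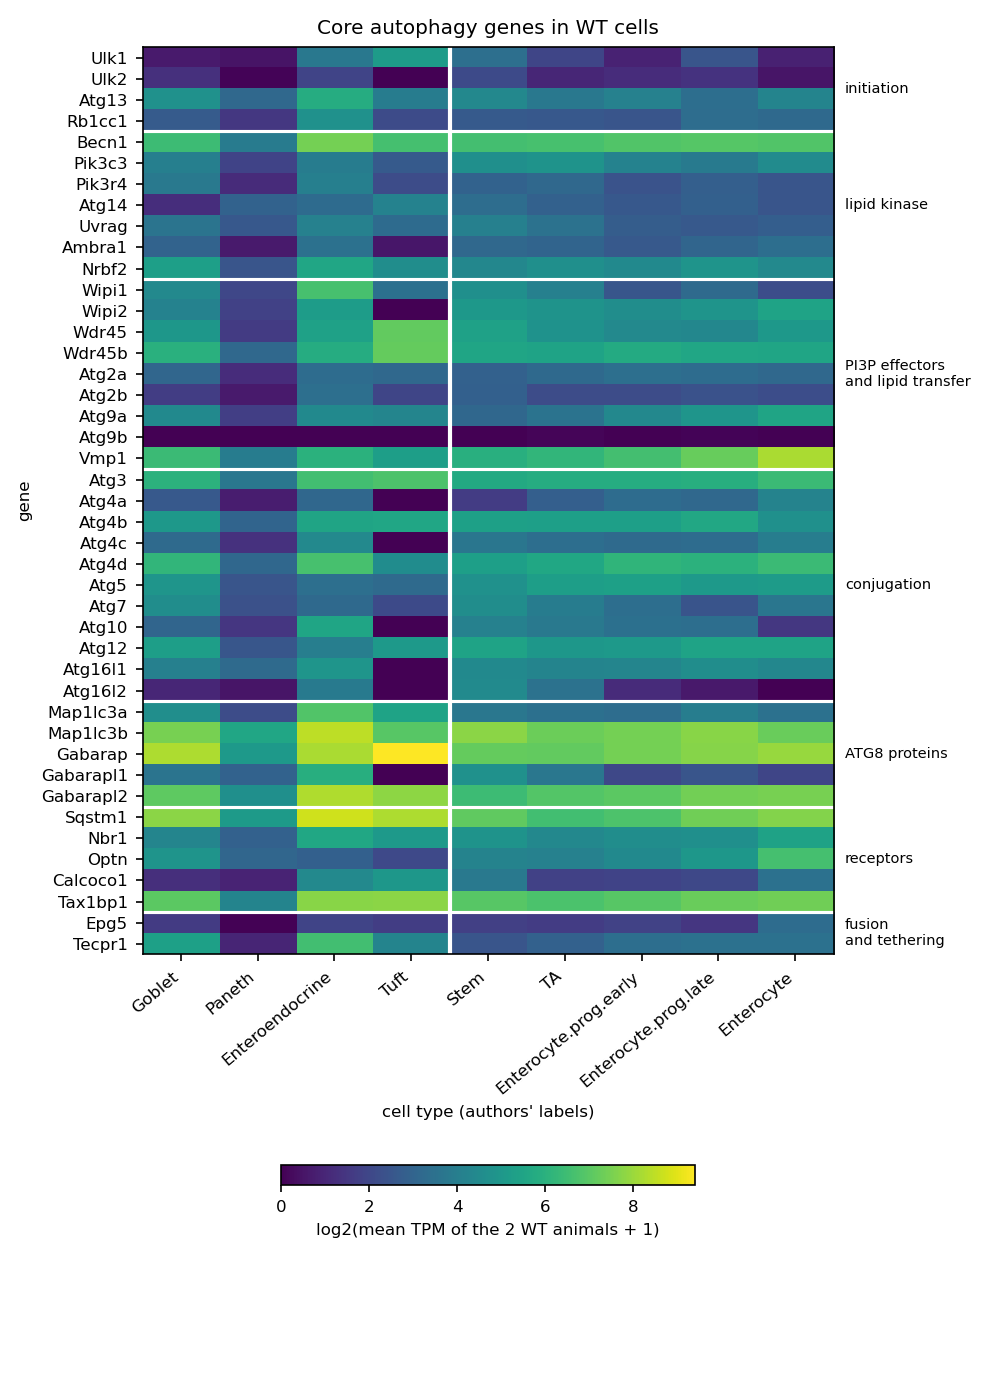
Mean level of each of the 43 genes (rows, by step) in each cell type (columns) in WT cells, as log2 of the mean TPM of 2 animals plus 1; the white vertical line parts secretory types on the left from absorptive types on the right. The ATG8 genes Map1lc3b, Gabarap and Gabarapl2 and the receptors Sqstm1 and Tax1bp1 form the brightest rows, Atg9b is dark throughout, and the Paneth column is the darkest of those with more than 7 cells.

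Of the initiation genes, the kinases Ulk1 and Ulk2 were low, at 9.85 and 3.38 TPM in WT stem cells and 0.819 and 0.461 TPM in WT enterocytes. Atg13, their adaptor, lay between 9.50 and 26.1 TPM in WT absorptive and goblet cells and at 55.03 TPM in WT enteroendocrine cells. Rb1cc1 (FIP200, the scaffold of the complex) ranged from 1.85 TPM in Paneth cells to 26.3 TPM in enteroendocrine cells of WT. In the lipid kinase group Becn1 stood out, with 86.4 to 170.9 TPM in WT types other than Paneth and tuft. The kinase itself, Pik3c3, had 13.6 to 27.6 TPM there, and Atg14 and Uvrag, which define the alternative complexes, had 1.34 to 9.18 TPM and 5.16 to 16.6 TPM. Becn1 thus lay above the other subunits of its complexes in each of these types, on the TPM scale, which corrects for length.

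Several families used mainly 1 or a few genes. Atg9a, the lipid scramblase of the ATG9 vesicles, made up 99.1% to 100% of the ATG9 pair in every WT type, and Atg9b was above 0 in 1.17% of KO cells and 0.896% of WT cells. Of the 4 ATG4 proteases, which trim ATG8 proteins and free them from lipid, Atg4d and Atg4b led. Atg4b made up 43.4% of their WT sum in stem cells and 17.6% in enterocytes, and Atg4d 41.4% and 59.2%. Among WIPI genes, Wipi1 made up 17.5% in stem cells, 3.06% in enterocytes and 42.8% in enteroendocrine cells of WT. Of the 5 ATG8 genes, Map1lc3b (LC3B) led in WT stem cells (44.9% of the sum) and Gabarap in WT enterocytes (41.9%) and goblet cells (46.5%). Map1lc3a and Gabarapl1 were minor, at 9.66% and 5.44% in WT enteroendocrine cells and 1.78% and 0.498% in WT enterocytes. Sqstm1 (p62) and Tax1bp1 together led the receptors in all types, and Optn, a receptor in mitochondrial and bacterial autophagy, made up 19.1% in WT enterocytes and 0.798% in WT enteroendocrine cells. These shares are descriptions and were not tested.

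Differences between types were tested in limma on log2(mean TPM + 1) per animal and type, with both genotypes and animal as a term, for the 30 members that passed the filter (at least 10 TPM on average and above 0 in at least 10% of cells). The 13 others were Ulk1, Ulk2, Rb1cc1, Pik3r4, Atg14, Ambra1, Atg2a, Atg2b, Atg9b, Atg4a, Atg16l2, Calcoco1 and Epg5. The F test over 8 types called 27 of the 30, against 97.5% of all 6799 genes tested. Without Paneth cells it called 19 of 30, against 70.3%, and after rescaling each profile by the median ratio to the others it called 17 of 30, against 58.4%. The share of members called lay below that of all genes in each of these fits, and the gap was not tested. Pik3c3, Uvrag and Atg16l1 were called in none of these fits. Without the run 1 cells of KO M2 the F test over 8 types called 30 members (the share of all genes in that fit is not given here). Since the type labels are the authors' and may rest on these same expression values, p-values between types can be too small.

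In mature enterocytes, set against stem cells, Vmp1, Atg9a, Optn and Gabarapl2 rose, and Gabarapl1, Wipi1 and Atg10 fell. The rise of Vmp1, which encodes a lipid scramblase of the endoplasmic reticulum, had the smallest p. Vmp1 stood at 272.8 and 328.3 TPM in KO and 271.6 and 317.1 TPM in WT enterocytes, against 86.82 and 73.61 TPM in KO and 50.58 and 69.29 TPM in WT stem cells. All 4 enterocyte profiles lay above all 4 stem profiles, and the log2 difference was 2.09 (SE 0.38, limma adjusted p = 0.00012; 2.14 in run 1 and 2.01 in run 2). The microRNA gene Mir21a shares 92 exon bases with Vmp1 on the same strand.

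Atg9a had 22.66 and 44 TPM in KO and 50.04 and 37.52 TPM in WT enterocytes, against 12.56 and 10.65 TPM in KO and 10.27 and 5.55 TPM in WT stem cells (log2 difference 1.87, SE 0.41, limma adjusted p = 0.00102). Optn had 71.45 and 69.77 TPM in KO and 102.1 and 94.44 TPM in WT enterocytes, against 25.56 and 5.77 TPM in KO and 9.91 and 25.52 TPM in WT stem cells (log2 difference 2.48, SE 0.57, limma adjusted p = 0.00161). For both genes the 2 sets of 4 profiles did not overlap. Both, like Vmp1, were named for their small p, so the lack of overlap adds no support. Gabarapl2 (GATE-16) averaged 166.6 ± 21.9 TPM in enterocytes and 80.3 ± 22.4 TPM in stem cells (SD, n = 4; log2 difference 1.08, limma adjusted p = 0.0182), and the call was lost without any one of the 4 animals (adjusted p 0.0605 to 0.0780).

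The 3 members that fell in enterocytes belong to the ATG8, WIPI and conjugation groups. Gabarapl1 had 3.34 and 7.35 TPM in KO and 1.28 and 4.47 TPM in WT enterocytes, against 20.06 and 16.95 TPM in KO and 13.63 and 38.37 TPM in WT stem cells (log2 difference -2.23, SE 0.61, limma adjusted p = 0.00701). Wipi1, a reader of the phosphoinositide mark, averaged 5.93 ± 6.19 TPM in enterocytes and 22.5 ± 5.02 TPM in stem cells (SD, n = 4; -2.28, adjusted p = 0.00856 in limma), and was not called without KO M1 (adjusted p = 0.0516) or WT M2 (0.0785). Atg10, the enzyme that passes ATG12 to ATG5, differed by -1.84 (limma adjusted p = 0.0471) and was not called without KO M1, WT M1 or WT M2 (0.104, 0.106 and 0.272) or without the run 1 cells of KO M2 (0.0675). Gabarapl1 thus differed in the opposite direction to Gabarapl2, but only the rise of Gabarapl2 was also called after rescaling by the median ratio (limma adjusted p = 0.00205).

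Of the 30 members, 4 rose and 3 fell in enterocytes, against 8.77% of all genes that rose and 14.8% that fell; the median log2 difference was 0.08 over the members and -0.28 over all genes. After rescaling by the median ratio 7 rose and 1 fell, against 18% and 18.3% of all genes: Atg4d, Gabarap and Tax1bp1 were added among the higher members, and the calls of Gabarapl1 (-1.98, limma adjusted p = 0.0520) and Atg10 (-1.58, 0.0779) were lost. In the fit without enteroendocrine and Paneth profiles, 8 rose and 6 fell, against 23.4% and 36.5% of all genes. Those 14 added Atg4d (1.11), Gabarap (0.73), Atg5 (0.58) and Tax1bp1 (0.41) among the higher members, and Uvrag (-1.13), Atg7 (-0.95) and Map1lc3b (-0.57) among the lower ones, on the log2 scale. With the KO animals alone none of the 30 was called (the share of all genes in that fit is not given here). Ulk1, fitted without the filter, was also lower in enterocytes (1.16 ± 0.668 TPM) than in stem cells (8.47 ± 1.86 TPM; SD, n = 4; log2 difference -2.17, limma adjusted p = 0.00681).

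Enteroendocrine cells, which release hormones from secretory granules, were set against the mean of the 5 absorptive types. Of the 5 ATG8 genes 4 were called higher (Gabarap was not, 0.77, limma adjusted p = 0.0519). Of 4 kept receptors 2 were higher and 1, Optn, lower. The 1 kept tethering gene, Tecpr1, which passed the filter through goblet and enteroendocrine cells, was higher. The profiles rest on 5 cells in KO M1, 15 in KO M2, 9 in WT M1 and 3 in WT M2. Of 30 members, 10 were higher and 3 lower, against 10.6% and 17.9% of all genes (median log2 difference of all genes -0.18).

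Tecpr1, which binds ATG5 and tethers autophagosomes to lysosomes, led. It stood at 49.93 and 108.1 TPM in KO and 89.36 and 97.79 TPM in WT enteroendocrine cells, against 9.58 and 4.95 TPM in KO and 8.92 and 7.67 TPM in WT absorptive cells. The profiles did not overlap (log2 difference 3.42, SE 0.40, limma adjusted p = 9.86e-08; 4.09 in run 1 and 3.61 in run 2). Tecpr1 was above 0 TPM in 84.4% of enteroendocrine cells and in 22.9% to 33.3% of cells of the absorptive types. Its absorptive means lay below the 10 TPM of the filter, which it passed through goblet and enteroendocrine cells. Its place among the kept members thus rests in part on the values compared here.

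Map1lc3a (LC3A) had 139.4 and 34.76 TPM in KO and 163.3 and 67.01 TPM in WT enteroendocrine cells, against 11.40 and 9.27 TPM in KO and 15.73 and 7.09 TPM in WT absorptive cells (log2 difference 3.09, SE 0.45, limma adjusted p = 3.94e-06). Sqstm1, which carries ubiquitinated cargo to LC3, had 708.7 and 504.0 TPM in KO and 542.2 and 311.6 TPM in WT enteroendocrine cells, against 139.8 and 119.3 TPM in KO and 147.6 and 135.5 TPM in WT absorptive cells (1.91, SE 0.29, limma adjusted p = 8.31e-06). Gabarapl2 averaged 415.6 ± 174.8 TPM in KO (SD, n = 2, KO M1 higher) and had 380.1 and 244.7 TPM in WT enteroendocrine cells, against 153.1 and 92.04 TPM in KO and 136.6 and 134.2 TPM in WT absorptive cells (1.51, SE 0.26, limma adjusted p = 4.84e-05). In each of these genes every enteroendocrine profile lay above every absorptive one. They and Tecpr1 were named for their small p, so the lack of overlap adds no support. Without the run 1 cells of KO M2 the log2 differences were 3.43 for Tecpr1, 3.13 for Map1lc3a, 1.81 for Sqstm1 and 1.56 for Gabarapl2.

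The other 6 members called higher were Gabarapl1 (log2 difference 1.91), Wipi1 (1.93), Atg10 (1.78), the receptor Nbr1 (1.19), Atg13 (1.18) and Map1lc3b (1.03). Of the 13 calls, those of Tecpr1, Map1lc3a, Sqstm1, Gabarapl2 and Gabarapl1 held when each animal was left out in turn, and the other 8 were lost without at least 1 animal. Gabarapl1 differed by 0.81 in KO animals alone and 3.01 in WT animals alone, and Wipi1 by 0.58 and 3.28; whether these gaps differ between genotypes was not tested. Wipi1 stood at 6.42 and 30.2 TPM in KO and 56.3 and 144.97 TPM in WT enteroendocrine cells, with WT M2 highest.

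Lower in enteroendocrine cells were Vmp1 (52.1 ± 18.7 TPM, against 144.8 ± 14.5 TPM in absorptive cells; SD, n = 4; log2 difference -1.32, limma adjusted p = 0.000983), Atg5 (14.03 ± 14.8 against 33.97 ± 1.05 TPM; -2.12, adjusted p = 0.00111 in limma) and Optn (9.83 ± 5.83 against 37.4 ± 3.06 TPM; -1.67, adjusted p = 0.00467 in limma). The Vmp1 call was lost without KO M1 (adjusted p = 0.0552), and those of Atg5 (0.0737) and Optn (0.0996) without WT M2, whose 3 cells listed Atg5 at 0. Fitted without the filter, Ulk1 (log2 difference 1.30), Atg2b (0.99) and Calcoco1 were called higher. Calcoco1, an endoplasmic reticulum receptor, had 24.1 ± 7.17 TPM in enteroendocrine and 6.45 ± 0.600 TPM in absorptive cells (log2 difference 1.99, limma adjusted p = 0.00788). Beside these results, enteroendocrine cells held 4604 and 957 TPM in KO and 752 and 605 TPM in WT of 5 stromal, endothelial and erythroid markers, where Vim had a mean of 1354 TPM and Col1a1 and Col3a1 were at 0. Of the same 5 markers, Pecam1 had 21.8 TPM there (0.672 in stem cells) and Hba-a1 60.1 TPM (44.5 in stem cells). Myeloid markers in enteroendocrine cells summed to 1.22 and 22.5 TPM in KO and 32.4 and 0 TPM in WT. T cell markers there summed to 1.36 to 15.2 TPM. The part of other cells in these results was not tested.

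In goblet cells the 1 member called was Tecpr1, with 70.6 and 46.1 TPM in KO and 41.9 and 37.2 TPM in WT, against 9.58 and 4.95 TPM in KO and 8.92 and 7.67 TPM in WT absorptive cells. No goblet profile overlapped an absorptive one (log2 difference 2.63, SE 0.40, limma adjusted p = 1.35e-05; 3.51 in run 1 and 2.26 in run 2), and 88.6% of goblet cells were above 0 TPM. Tecpr1 passed the filter only through goblet and enteroendocrine cells and was named for its small p, so the lack of overlap adds no support. Of all genes, 6% were called higher in goblet cells and 8.19% lower, with a median log2 difference of -0.27. Bhlha15 (MIST1, a secretory lineage factor), the gene next to Tecpr1 on the opposite strand, had 39.6 TPM in goblet cells and 1.24 TPM in absorptive cells on average. It had 12.6 TPM in Paneth cells, where Tecpr1 had 0.630 to 4.42 TPM, and 0.924 TPM in enteroendocrine cells, where Tecpr1 was highest. The part of reads from Bhlha15 in the goblet value was not tested. Wipi2 (-0.56, limma adjusted p = 0.377) and Atg10 (-0.70, 0.455) were the members with the smallest p among the lower ones. After rescaling by the median ratio, Tecpr1, Sqstm1 (1.07) and Gabarap (0.88) were called higher and no member lower, against 10.3% and 10.7% of all genes. In the fit without enteroendocrine and Paneth profiles, 5 members were higher (Tecpr1, Sqstm1, Gabarap, Atg7 and Atg13) and 2 lower (Becn1 and Vmp1), against 13.3% and 34.9% of all genes.

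Paneth cells, which secrete antimicrobial granules at the crypt base, had lower TPM of every kept member than absorptive cells, as did nearly every gene. All 30 members were called lower, against 96.2% of all genes (0.927% were called higher), and the median log2 difference of all genes was -2.43. Wdr45, another reader of the phosphoinositide mark, had 1.17 and 0.863 TPM in KO and 2.92 and 1.36 TPM in WT Paneth cells, against 24.8 and 30.7 TPM in KO and 27.2 and 28.3 TPM in WT absorptive cells (-3.47, SE 0.31, limma adjusted p = 7.29e-10). Becn1 differed by -2.95, Gabarapl2 by -2.62 and the protease Atg4b by -3.15, while the median of the 30 members (-2.19) lay above that of all genes. After rescaling by the median ratio, which sets the typical gene equal across profiles, 19 of the 30 members lay above 0 (median 0.23, against -0.15 over all genes). Of all genes 7.38% were then called higher and 10.4% lower, and 3 members were called: Atg13 (1.30, limma adjusted p = 0.0163) and Sqstm1 (1.09, 0.0135) higher and Wdr45 (-1.24, 0.0358) lower. Gabarapl2 then differed by 0.06 and Becn1 by -0.31. The profiles rest on 4 cells in KO M1, 3 in KO M2, 6 in WT M1 and 9 in WT M2. In TPM, fewer transcripts of these genes per Paneth cell and more transcripts of granule genes cannot be told apart.

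**Figure D3:**
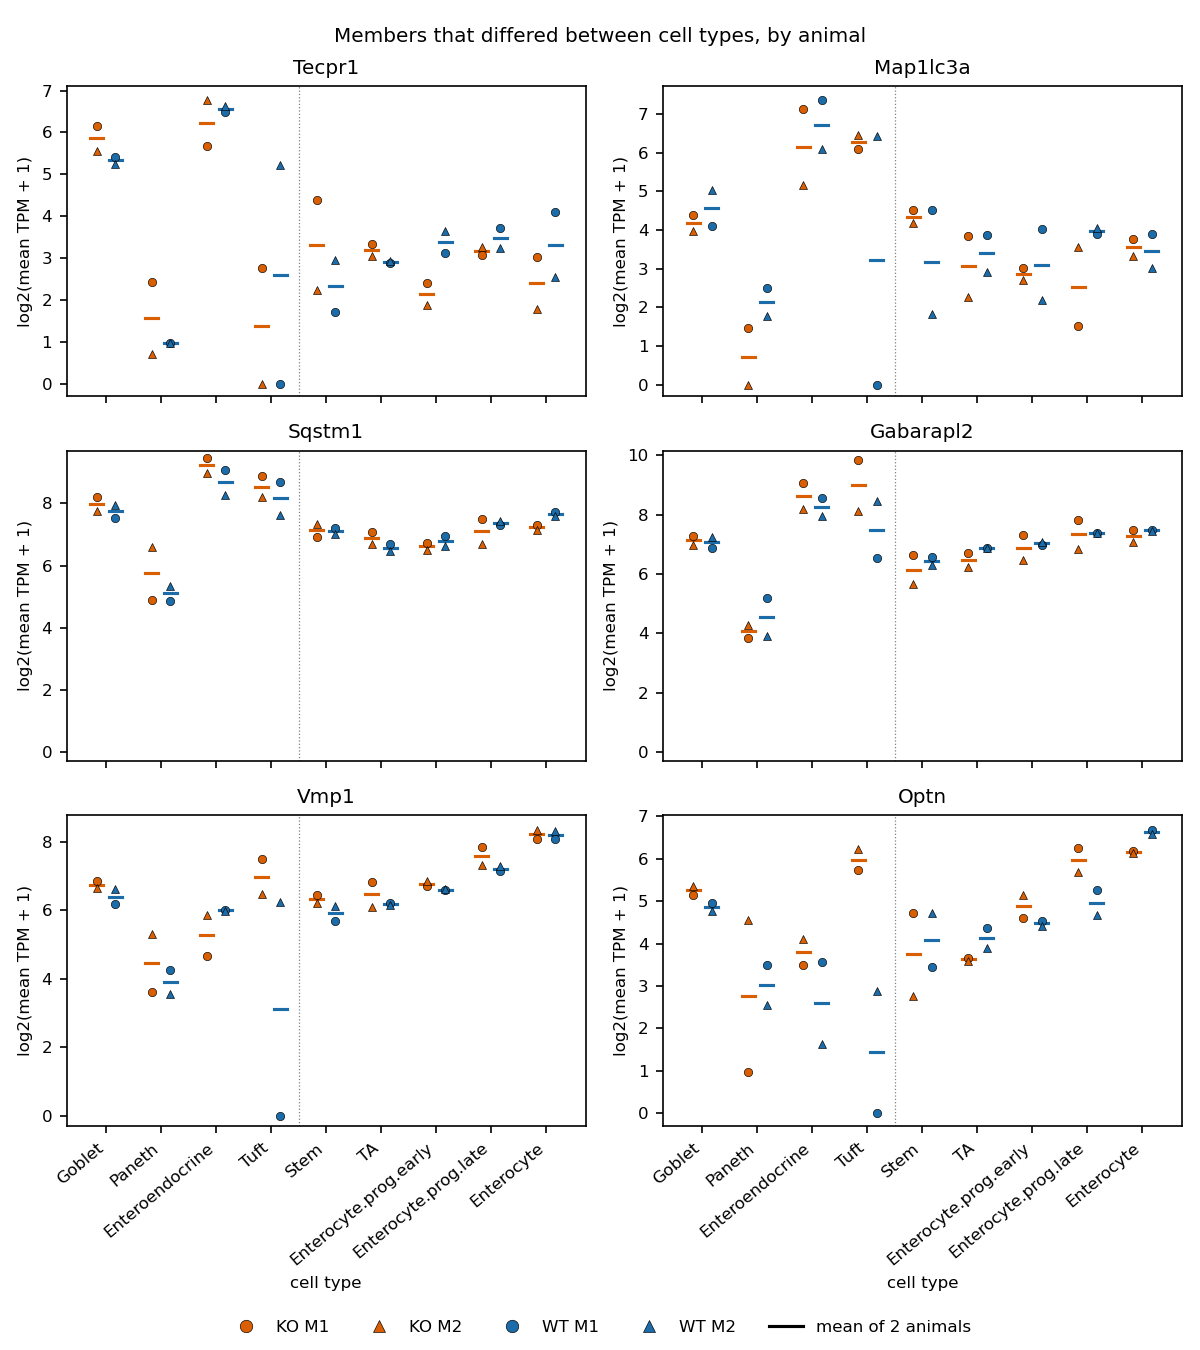
Level of 6 genes as log2(mean TPM + 1) in each animal and cell type, KO in orange left of WT in blue, with circles for M1, triangles for M2 and bars for the mean of 2 animals; the dotted line parts secretory from absorptive types. Tecpr1, Map1lc3a, Sqstm1 and Gabarapl2 are high in enteroendocrine cells of all 4 animals, and Vmp1 and Optn are highest among absorptive types in enterocytes; tuft points rest on 1 or 2 cells.

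Genes that act beside the core machinery were read from 3 lists: upstream control (18 of 20 measured, 10 kept), fusion with the lysosome (19 measured, 15 kept) and organelle receptors (14 of 16 measured, 10 kept). In enterocytes Sesn1, a stress-induced inhibitor of mTORC1 (130.5 TPM, against 25.4 in stem cells), and the receptor Tollip (38.96 against 18.2) were higher by limma. None of the 15 kept fusion genes was called, though 10 were above 0 (median log2 difference 0.40), and after rescaling by the median ratio Vamp8 (1.11) and Ykt6 (1.26), both SNAREs, were called higher and 13 were above 0 (median 0.61). In enteroendocrine cells the HOPS tethering genes Vps11 (68.7 TPM, against 21.4 in absorptive cells) and Vps41 (73.6 against 26.02) were higher and Vps16, of the same complex, was lower (15.8 against 30.97). The mitophagy receptor Bnip3l (69.9 against 25.8 TPM), the endoplasmic reticulum receptor Ccpg1 (47.1 against 18.6), Tollip (59.2 against 29.4) and the kinase subunit Prkaa1 (21.1 against 9.82) were higher, and Tex264, Ncoa4 and Sesn1 lower. Of these, Ccpg1 (limma adjusted p = 0.0770) and Prkaa1 (0.0614) were not called after rescaling. In goblet cells the autophagosomal SNARE Stx17 (36.3 TPM, against 11.1) and the receptor Sec62 (20.9 against 9.39) were higher, and Lamp2, Vps18, Pink1 and Sesn1 lower. Lamp2 (limma adjusted p = 0.271) and Vps18 (0.0898) were not called after rescaling. The shares of all genes called in these comparisons are those given above (8.77% and 14.8% in enterocytes, 10.6% and 17.9% in enteroendocrine cells, 6% and 8.19% in goblet cells, higher and lower).

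No core autophagy gene kept by the filter was called higher or lower in KO cells than in WT cells. KO and WT were compared in limma over 2 animals of each genotype, as the average of 6 cell types (each animal having 10 or more cells of each) and within each of them. The average called none of the 30 kept members, against 0% of 6777 genes (0 genes), and no member had an unadjusted p under 0.05, against 7.57% of all genes. The median log2 difference, KO minus WT, was -0.03 over the 30 members (12 above 0 and 18 below) and 0.03 over all genes. In 11 of 30 members both KO animals lay on 1 side of both WT animals (36.7%), against 39.2% of all genes. By step, 3 of 4 kept lipid kinase genes were above 0 (median 0.17) and 5 of 6 effector and lipid transfer genes below (median -0.04).

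Atg16l2 itself was not kept by the filter in the average, and in the fit without a filter its adjusted p was 0.356 in limma, with both KO animals listed at 0 and both WT animals above. Atg16l1 averaged 18.8 ± 1.46 TPM in KO and 19.4 ± 2.22 TPM in WT over the means of the 6 cell types (SD, n = 2 each). On the log2 scale the average of types differed by -0.11 (SE 0.19, limma adjusted p = 0.901), 0.18 in run 1 and -0.61 in run 2. The difference was smaller than its standard error, and its sign was not the same in both runs.

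The members with the smallest p whose animals did not overlap were given on the log2(mean TPM + 1) scale. Vmp1 stood at 7.13 and 6.93 in KO and 6.66 and 6.86 in WT (0.27, SE 0.15, limma adjusted p = 0.681). Wdr45b, a reader of the phosphoinositide mark, stood at 5.36 and 5.30 in KO and 5.62 and 5.62 in WT (-0.29, SE 0.15, limma adjusted p = 0.681). The lipid kinase Pik3c3 differed by 0.33, Atg4c by 0.38 and Tax1bp1 by 0.17, and Atg7, the E1-like enzyme of both conjugation systems, by -0.32, Atg4b by -0.25 and Gabarap by -0.12, each with a limma adjusted p between 0.703 and 0.824. Of these, Vmp1, Pik3c3 and Tax1bp1 had opposite signs in the 2 runs, and without the run 1 cells of KO M2 they differed by 0.12, 0.15 and 0.04, while Atg4b differed by -0.61. Over all 30 members, 10 had the same sign in both runs, with medians of 0.09 in run 1 and -0.11 in run 2.

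**Figure D4:**
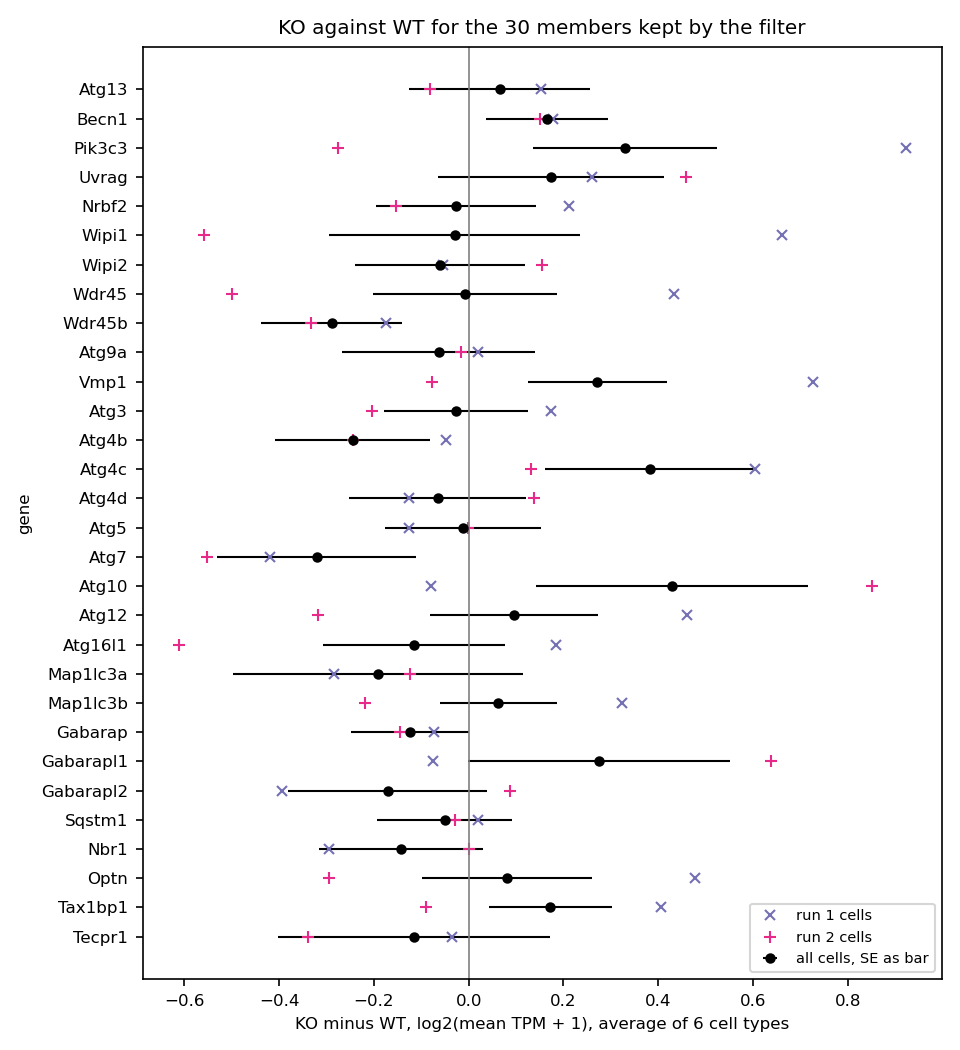
Difference of KO minus WT in log2(mean TPM + 1), averaged over 6 cell types, for each of the 30 kept genes; black points show all cells with the standard error from limma as a bar, violet crosses the run 1 cells and pink plus signs the run 2 cells. The black points lie between -0.32 and 0.43, and crosses and plus signs lie on the same side of 0 in 10 of 30 genes.

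Within types no member was called either, with 23 to 30 members kept per type. The share of all genes called was 0% in stem cells and early progenitors, 0.0588% in TA cells, 0.082% in late progenitors, 0.0342% in enterocytes and 0.0161% in goblet cells. An unadjusted p under 0.05 was found for 1 member in stem cells (5.46% of all genes) and 1 in TA cells (7.96%). There were 0 such members in early progenitors (5.53%) and in enterocytes (8.32%), and 2 each in late progenitors (5.59%) and goblet cells (6.1%). Both KO animals lay on 1 side of both WT animals for 12 of 30 members in stem cells (34.1% of all genes), 12 of 28 in TA cells (40.1%) and 8 of 23 in early progenitors (36.2%). The same held for 11 of 25 in late progenitors (34.1%), 5 of 25 in enterocytes (38%) and 14 of 29 in goblet cells (35.9%). In stem cells the deleted gene was the member with the smallest p (limma adjusted p = 0.888), with 0 and 0 TPM in KO and 17.2 and 26.3 TPM in WT. Nbr1 in stem cells stood at 3.86 and 4.16 in KO and 4.73 and 4.96 in WT (-0.84), and in goblet cells at 5.13 and 5.30 in KO and 3.92 and 4.59 in WT (0.96), on the log2 scale. That KO and WT animals did not overlap was a condition for naming Nbr1 in each type, so it adds no support. The sign of its difference was the same in both runs in both types. The F test of whether the KO and WT difference varied over types gave Nbr1 the smallest p of the 30 members (0.0229, limma adjusted p = 0.573), against 7.3% of all genes with an unadjusted p under 0.05, and called none of them (0.0148% of all genes).

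In TA cells Atg12 (0.55) and Wipi2 (0.54) had the smallest p, in early progenitors Atg4c (0.54) and Tax1bp1 (0.29), in late progenitors Optn (1.0) and Atg4b (-0.95), in enterocytes Wipi2 (-0.93) and Wdr45b (-0.76), and in goblet cells Wdr45b (-1.01). Their limma adjusted p ran from 0.595 to 0.877. Wipi2 thus had opposite signs in TA cells and enterocytes (F test adjusted p = 0.702 in limma). Without the run 1 cells of KO M2 the differences of Atg12 and Wipi2 in TA cells were 0.14 and 0.47, those of Atg4c and Tax1bp1 in early progenitors 0.13 and 0.07, and that of Optn in late progenitors 0.41. High sums of Paneth markers stand beside these values, in goblet cells, early progenitors and enterocytes of KO M1 and in late progenitors of KO M2. Their part was not tested. The lists of upstream control (10 kept genes, median 0.25), fusion (15, 0.06) and organelle receptor genes (10, 0.09) held no called gene in the average either.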

How the data were processed

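The data are SMART-Seq2 single-cell RNA-seq libraries; the labels also name a 10X Chromium preparation. The authors deposited 1 table of TPM values (transcript amounts corrected for gene length, each cell summing to 999999.17 to 1000000.78) for 342 KO and 335 WT cells. Bowtie, TopHat and RSEM are named per the submitters' processing notes, and their versions and the genome build are not given in the sources used here. TPM keeps no depth, so no count test was used. Columns were matched to cells by title, with 0 left unmapped and 0 identical, and genotype, animal code, run and cell type came from the titles. No cells were removed and no doublet caller was run.

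TPM was averaged over the cells of each animal and type, and log2(mean + 1) was tested in limma 3.58.1 (R 4.3.3; eBayes with trend, two-sided, Benjamini-Hochberg over all kept genes, threshold 0.05). Differences are on that scale, which understates changes of low genes. Kept genes averaged 10 TPM or more and were above 0 in 10% or more of cells. The genotype comparison used 4 animals and the 6 types with 10 or more cells per animal, with 2 residual degrees of freedom. Types were compared over 32 profiles of 8 types with at least 3 cells per animal, with animal as a term. The fit was tested on simulated data, in which the cells of a type were drawn from all animals. That removes the spread between animals, so the simulation does not show what the fit can detect in these animals. M1 and M2 were read as animals. The labels do not say that they were housed or processed separately, so p-values measure only the spread between these codes.

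The members and lists were chosen with earlier results of these data known. Genes named with full values were, per type comparison, up to 4 called members per direction by smallest p (the smallest 2 where none was called). For KO against WT they were Atg16l2, Atg16l1 and up to 4 members per direction by smallest p among those whose animals did not overlap (up to 2 within a type). Other genes named, Sqstm1 and Gabarap in goblet cells among them, were chosen after their values were seen. Alternatives covered pseudocounts (0.1, 10), filters, normalization, runs, left-out animals, weighting and the replicate block. Sequences came from the RefSeq promoter table (GRCm38.p6) and exon overlaps from GENCODE vM21.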

Additional observations from a re-analysis of the deposited data

How the results depend on the processing

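For KO against WT, 0 members were called in the average, in each of 6 types and in the F test over types under every alternative run (18, 17 and 16 alternatives), while the number of all genes called in the average ran from 0 to 57. The samples share only a number, and the labels do not say that same-numbered animals share a litter or day, so they were not taken as pairs. Deviations of same-numbered animals correlated at -0.132 over 6777 genes, which cannot decide the pairing with 2 animals per genotype. With the replicate block 0 members and 2 genes were called in the average, and with the pairing crossed, chosen after seeing the data, 0 members and 46 genes.

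Counts of members called between types, out of 27 (F test over types), 7 (enterocyte against stem), 1 (goblet), 30 (Paneth) and 13 (enteroendocrine, the last 3 against absorptive cells), moved as follows. With a filter of 50 TPM, which tests fewer members, they were 9, 2, 0, 9 and 4. Quantile normalization gave 17 for the F test, 6 for goblet and 7 for Paneth cells, and median ratio scaling 17, 3 and 3. In Paneth cells Gabarapl2 then changed sign, to 0.0346 (quantile) and 0.0604 (median ratio). The mean of log values gave 14 for enterocytes and 3 for goblet cells. The fit on 6 types gave 15 (F test), 14 (enterocytes) and 7 (goblet). KO animals alone gave 13 (F test), 0 (enterocytes) and 5 (enteroendocrine), and WT animals alone 8 (enteroendocrine). Run 1 alone gave 5 for enteroendocrine cells. For goblet cells a pseudocount of 10 gave 3, no filter 2, run 2 alone 5, leaving out the run 1 cells of KO M2 5, and weights by cell number 6. Leaving out 1 animal gave 26 to 29 (F test), 4 to 6 (enterocytes, 4 without KO M1 or WT M2), 1 (goblet), 27 to 30 (Paneth) and 8 to 15 (enteroendocrine, 8 without WT M2). Apart from the changes of scale and of the types fitted, the cause of these moves was not tested. Of the values of single genes named, 593 were the same: called genes kept direction and call, and uncalled genes stayed within the SD between animals. Another 44 values lost the call, 75 of uncalled genes moved by more than that SD, and 2 of called genes reversed. Changes of sign were not counted for uncalled genes, and some occurred, such as Vmp1 in the KO and WT average (0.27, lowest -0.08). Enteroendocrine and Paneth profiles rest on 3 to 15 cells per animal, and TPM gives no depth from which to set a detection limit per cell.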

Other observations

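Tuft cells, chemosensory cells of the secretory lineage, were too few to test, with 2 cells each in KO M1 and KO M2, 1 in WT M1 and 2 in WT M2. In WT tuft cells the mean of the 2 animals was 680 TPM for Gabarap, 139.7 TPM for Wdr45, 143.1 TPM for Wdr45b and 34.8 TPM for Ulk1. The highest WT means of these genes in the 8 other types were 304.5 TPM for Gabarap in goblet cells, 40.9 TPM for Wdr45 in enteroendocrine cells, 61.3 TPM for Wdr45b in goblet cells and 12.7 TPM for Ulk1 in enteroendocrine cells. Atg16l1 and Atg16l2 were at 0 in all 3 WT tuft cells.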
